A study of Mus musculus with 14 samples.

Results

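The hippocampus of MRL mice was compared with that of IRAK4-KD mice, 2 groups that differ at Fas and at Irak4 together. All 4 MRL libraries and all 3 libraries labelled IRAK4-KD entered the comparison, 7 of the 14 poly(A) RNA libraries of the series, and each library came from 1 mouse aged 10 months whose brain had been flushed with cold PBS. MRL mice are B6.MRL-Faslpr/J mice, homozygous for the lpr mutation of Fas, with an unmutated Irak4. IRAK4-KD mice carry a kinase-dead Irak4 and, by their label, an unmutated Fas. The other 2 groups, MRL-IRAK4-KD with both mutations (4 libraries) and C57BL6/J with neither (3 libraries), served to estimate the spread and are used below to place single genes. All 4 groups were described as being on a C57BL/6 background, and both mutations act in every cell of the body, so that no effect can be ascribed to brain cells by design. Because both loci differ between MRL and IRAK4-KD, the parts of the lpr mutation, of the Irak4 allele and of any other DNA that came with either stock cannot be told apart from these 7 libraries. Of the 55536 Ensembl genes in the count table, 38070 had at least 10 counts over the 14 libraries and were tested.

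Fas is a death receptor that removes activated lymphocytes, and mice without it develop a lupus-like disease with autoantibodies. IRAK4 is the kinase that starts signalling from Toll-like and interleukin-1 receptors, through the adaptor MyD88, towards NF-kappa-B, cytokines and type I interferon. In lupus models, interferon-stimulated genes are a common readout of the disease, and vessels and microglia are the brain cells that meet signals from the blood first.

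The summed counts of Ensembl genes ranged from 476047042 to 571925600 in MRL and from 392966963 to 543957151 in IRAK4-KD libraries. Markers of hippocampal neurons were present in all 14 libraries, with Prox1 of the dentate gyrus at 55.9 to 125 CPM (counts scaled to a common library total, with TMM factors), Wfs1 of CA1 at 80.0 to 118 CPM and Grik4 of CA3 at 33.4 to 83.7 CPM. Several libraries stood apart. MRL replicate 4 did so at interferon-related, MHC and vascular genes and MRL replicate 3 at pituitary hormone genes, with values given below. The library labelled MRL-IRAK4-KD replicate 4 scored 256.8 on a first principal component that held 23.5% of the variance, against -40.93 to 7.354 for the other 13 libraries, and it bears on the comparison through the shared estimate of the spread. The library labelled IRAK4-KD replicate 3 went against its label at Fas and had 1020 CPM over a list of 16 striatal genes, against 441 and 445 CPM in IRAK4-KD replicates 1 and 2 and 422 to 446 CPM in MRL. Results are therefore given with and without it.

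Fas and Irak4 were read first. The full-length transcript Fas-201, which has 9 exons and lies at chr19:34290666-34327772 on the plus strand of GRCm38, had 0 counts in all 4 MRL libraries and 360, 386 and 0 counts in IRAK4-KD replicates 1, 2 and 3. The transcript Fas-204, which has 10 exons and is annotated as a target of nonsense-mediated decay, had 622, 559, 505 and 964 counts in MRL and 5, 7 and 514 counts in IRAK4-KD. Replicate 3 therefore had the Fas transcripts of the MRL libraries and not those of the other 2 IRAK4-KD libraries. Summed over transcripts, Fas stood at 1.35, 0.989, 1.09 and 2.10 CPM in MRL and at 0.912, 0.986 and 0.935 CPM in IRAK4-KD, a log2 fold change of 0.55 ± 0.27 (SE) with an adjusted p of 0.585. Throughout, a positive log2 fold change is higher in MRL, and a gene is called at an adjusted p under 0.05 (edgeR quasi-likelihood test, Benjamini-Hochberg adjustment over all genes tested). Irak4 was at 2.46, 2.22, 2.14 and 2.72 CPM in MRL and 2.04, 2.53 and 2.23 CPM in IRAK4-KD, with a log2 fold change of 0.07 ± 0.18 and an adjusted p of 1.0. The groups overlapped, and since a point mutation can abolish kinase activity without lowering the RNA, this level does not test the Irak4 label.

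In the comparison 168 genes were called, 0.441% of the 38070 tested, with 128 higher in MRL (0.336%) and 40 lower (0.105%). At an unadjusted p under 0.05, 2162 genes were higher (5.68%) and 1298 lower (3.41%). The number of calls depended on single libraries. Leaving out MRL replicates 2 and 4 in turn gave 93 and 95 calls, and leaving out IRAK4-KD replicates 1, 2 and 3 gave 91, 62 and 63. With MRL-IRAK4-KD replicate 4 removed from the shared fit there were 1088. That last count comprised 789 genes higher in MRL (2.09% of 37836) and 299 lower (0.79%), and it contained 167 of the 168 genes. An exact permutation test of 4 against 3 libraries cannot give a p below 0.0571, so that single genes were not tested that way.

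The called genes fell into patterns over the 4 groups, described here by the ranges of CPM of the libraries, which are the values behind the calls and are no separate evidence. For 96 of the 168 genes (57.1%, against 1.53% of all genes tested) the 3 IRAK4-KD libraries lay outside the range of the other 11. For 45 genes (26.8%, against 0.975%) the 4 MRL libraries did so. For 39 genes (23.2%, against 0.444%) both groups with the mutated Irak4 lay apart from both groups without it. Both lpr groups lay apart from both others for 11 genes (6.55%, against 0.457%), and a gene can show more than 1 pattern. Groups are taken by label, so that IRAK4-KD replicate 3 counts as a library without lpr although it had the Fas transcripts of MRL. A gene that followed the Fas transcripts could therefore miss this last pattern, and its count is not to be set against that for Irak4.

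**Figure D1:**
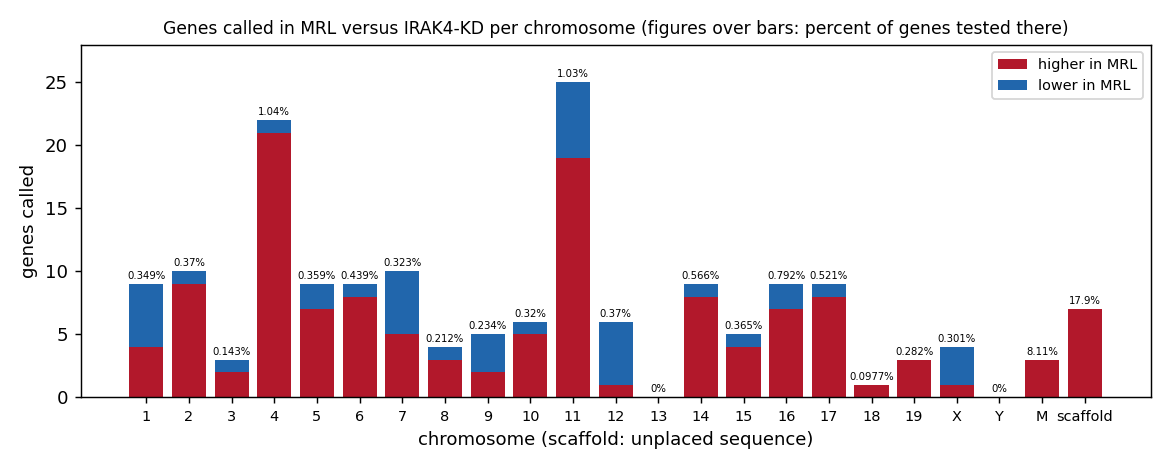
Genes called in MRL versus IRAK4-KD on each chromosome (bars, number of genes, red higher and blue lower in MRL), with the percent of the genes tested there printed over each bar. Chromosomes 11 and 4 hold the tallest bars, with 25 and 22 genes, and unplaced scaffolds (17.9%) and the mitochondrial genome (8.11%) hold the highest percentages.

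The calls were unevenly spread over the genome. Chromosome 11 held 25 calls of 2432 genes (1.03%), chromosome 4 held 22 of 2107 (1.04%), the unplaced scaffolds 7 of 39 (17.9%) and the mitochondrial genome 3 of 37 (8.11%), while 0 of 1650 genes on chromosome 13 were called. Within 10 Mb of Fas 0 of 289 genes were called, and within 10 Mb of Irak4 2 of 414 (0.483%), Tymp and Tns2, close to the 0.441% of all genes. Within 5 Mb of Irak4 there were 0, and within 20 Mb there were 5. With MRL-IRAK4-KD replicate 4 removed, 10 genes were called within 10 Mb of Fas and 18 within 10 Mb of Irak4, of the 1088 then called. In that fit 2.09% of all genes tested were called higher in MRL and 0.79% lower. Within 5 Mb 8 of 136 genes were called near Fas in it and 6 of 160 near Irak4. IRAK4-KD replicate 3 had the Fas transcripts of MRL, so that differences that go with Fas could be missed here. Whether either locus holds more calls than the rest of the genome was not tested.

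Some of the largest differences by size lay in the Ccl21 cluster of chromosome 4. The log2 fold changes of Gm11168 (-9.76) and Ifi208 (9.5), described below, were larger in size but rest on a group without counts. Ccl21 is the chemokine that draws T cells and dendritic cells carrying the receptor CCR7 into lymphoid tissue, and the mouse genome holds several near-identical copies of its gene among copies of other genes. Between 41809083 and 42612860 on chromosome 4 (GRCm38), 17 of 42 tested genes were called (40.5%), and all 17 were higher in MRL. A further 7 calls lay on unplaced scaffolds, where more Ccl21 genes are annotated. Reads of such copies may be divided among them in counting, so that the level of a single copy is uncertain.

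Ccl21b at chr4:42255767-42256432 was at 1.46, 3.05, 3.07 and 2.52 CPM in MRL and at 0.0198, 0.0175 and 0.0198 CPM in IRAK4-KD. Its log2 fold change was 7.03 ± 0.37 (adjusted p = 5.19e-07). All 3 IRAK4-KD libraries were near background and the groups did not overlap. In the remaining groups Ccl21b was at 1.72, 1.92 and 1.79 CPM in C57BL6/J and at 0.0103, 0.014, 0.0115 and 0.0225 CPM in MRL-IRAK4-KD, so that it was low in every library with the mutated Irak4, on the lpr background and off it. On the scaffold GL456350.1 further genes named Ccl21b and Ccl21c differed by 6.58 ± 0.53 and 6.68 ± 0.83 on the log2 scale (adjusted p = 2.51e-05 and 0.00185). The Ccl21b annotated on the scaffold JH584293.1 had a log2 fold change of 3.91 ± 0.88 and an adjusted p of 0.077. The 2 genes annotated as Ccl21a, each with a log2 fold change of 1.90, had adjusted p of 0.419 and 0.46.

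The called gene with the smallest p was Gm10600, a protein-coding model of the same cluster. It was at 5.89, 7.62, 7.93 and 8.55 CPM in MRL and 0.253, 0.300 and 0.232 CPM in IRAK4-KD, with a log2 fold change of 4.84 ± 0.21 (adjusted p = 6.69e-08). Its neighbours Gm13304, Gm21541, Gm10591 and Gm17081 differed by 6.39 ± 0.45, 7.07 ± 0.66, 6.74 ± 0.64 and 5.48 ± 0.40 on the log2 scale. For each of these 5 genes the IRAK4-KD libraries lay below every MRL library. Without IRAK4-KD replicate 3, 16 of the 17 chromosome 4 genes were still called.

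**Figure D2:**
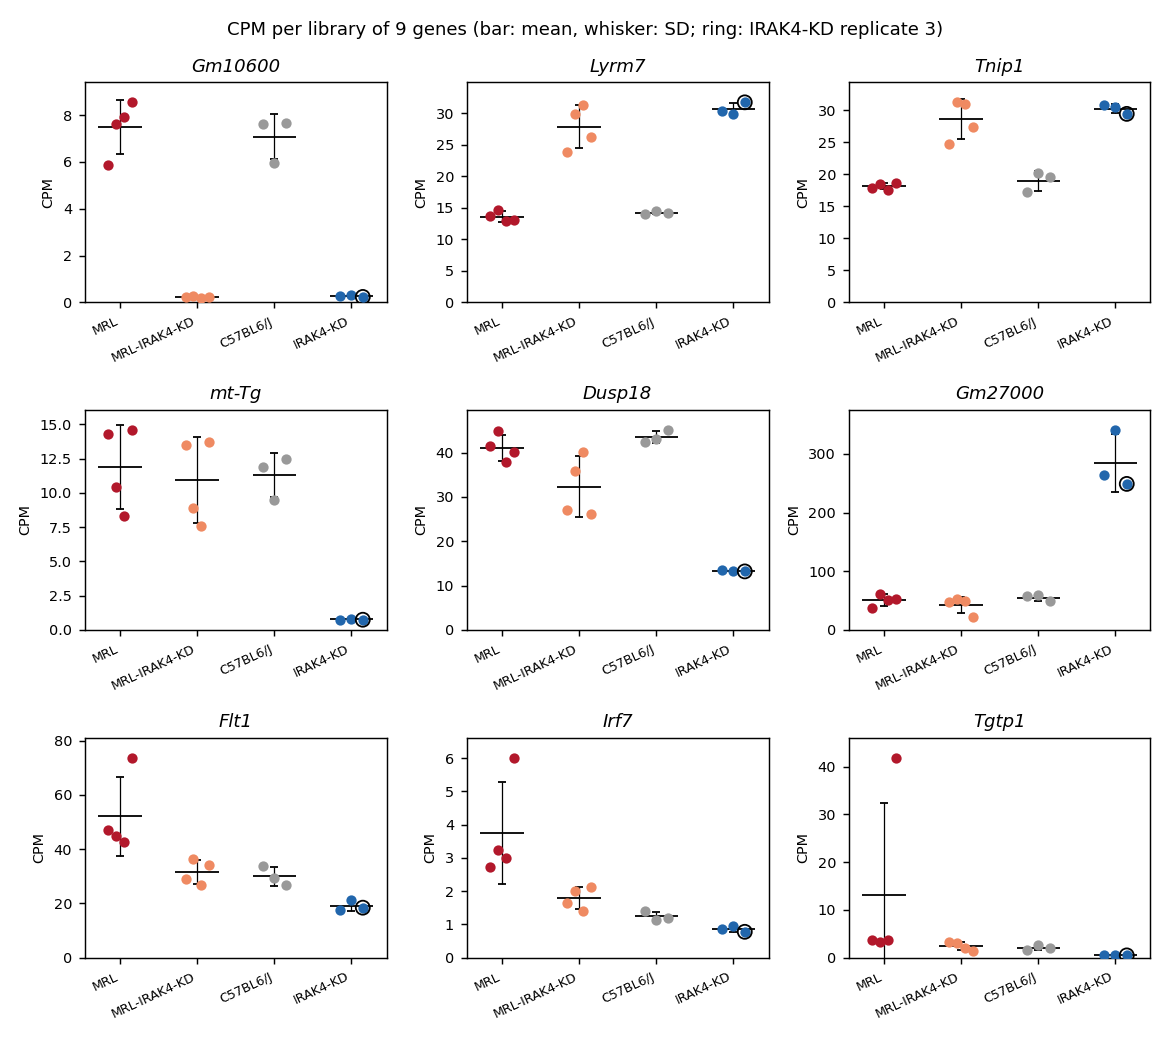
CPM of 9 genes in each of the 14 libraries by group (points, 1 library each, y axis from 0), with the group mean (bar) and SD (whisker); a ring marks IRAK4-KD replicate 3. Gm10600, Lyrm7 and Tnip1 separate both groups with the mutated Irak4 from both without it, mt-Tg, Dusp18 and Gm27000 set IRAK4-KD apart, and Flt1, Irf7 and Tgtp1 are lowest in IRAK4-KD and highest in MRL, Tgtp1 with MRL replicate 4 at 41.9 CPM.

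A comparison that shares no library with this one was available. By label, C57BL6/J against MRL-IRAK4-KD has the same difference at Irak4 and the opposite one at Fas. A gene that follows Irak4 then has the same sign in both, and a gene that follows lpr has opposite signs. IRAK4-KD replicate 3, with the Fas transcripts of the lpr groups, makes the difference at Fas incomplete in the first comparison. In C57BL6/J against MRL-IRAK4-KD 37 genes were called (0.0972% of 38070), 23 without C57BL6/J replicate 1 and 13 with no library of another group in the fit. Within 10 Mb of Fas 3 of 289 genes were called there, and within 5 Mb 3 of 136, beside 0.0972% of all genes. Within 10 Mb of Irak4 it was 0 of 414. Of the 168 genes, 91 had the same sign there and 77 the opposite sign. At an adjusted p under 0.05, 25 of them passed there too, all 25 with the same sign. With the opposite sign 0 passed at an adjusted p and 10 at an unadjusted p under 0.05, against 47 with the same sign. Of the 25 genes, 22 were on chromosome 4 or the scaffolds, and the other 3, Lyrm7, Tnip1 and the long noncoding RNA Gm39822, were on chromosome 11.

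**Figure D3:**
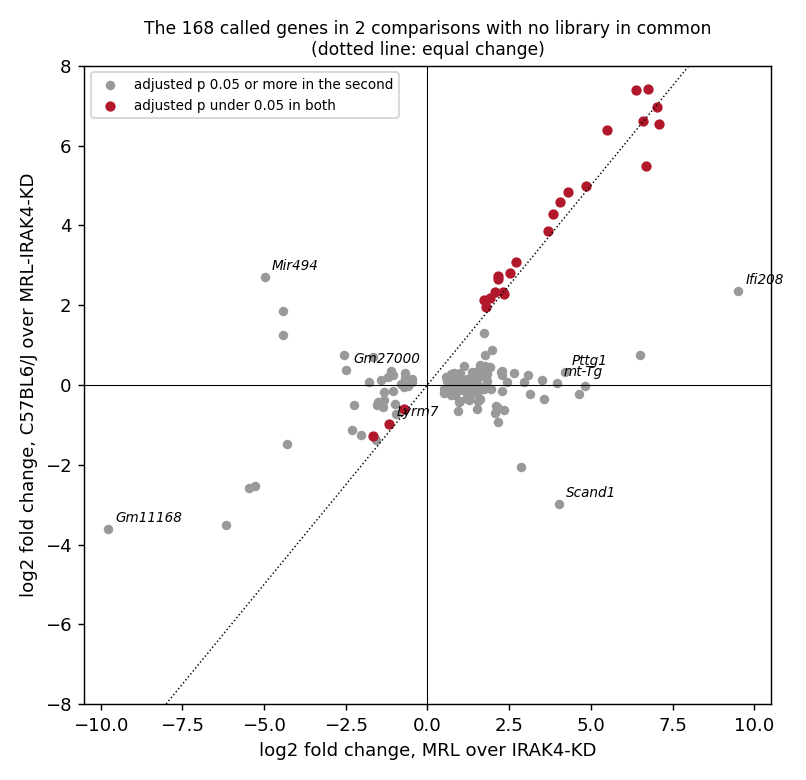
Log2 fold change of the 168 called genes in MRL over IRAK4-KD (x axis) and in C57BL6/J over MRL-IRAK4-KD (y axis), which have no library in common; red points have an adjusted p under 0.05 in both and the dotted line marks equal change. The 25 red points lie near the line, while mt-Tg, Gm27000, Pttg1 and Mir494 lie far from it.

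The 3 shared genes of chromosome 11 were lower in MRL. Lyrm7, an assembly factor of mitochondrial complex III, was at 13.7, 14.7, 12.9 and 13 CPM in MRL and 30.4, 29.8 and 31.7 CPM in IRAK4-KD, a log2 fold change of -1.17 ± 0.10 (adjusted p = 5.61e-05). Tnip1, which binds A20 and restrains NF-kappa-B, was at 17.9, 18.5, 17.6 and 18.6 CPM in MRL and 30.8, 30.4 and 29.4 CPM in IRAK4-KD, a log2 fold change of -0.73 ± 0.10 (adjusted p = 0.00335). Gm39822 had a log2 fold change of -1.68 ± 0.19 (adjusted p = 0.000718). The groups did not overlap for any of the 3, and the spread within each group was small beside the difference. In C57BL6/J over MRL-IRAK4-KD the log2 fold changes were -0.97 for Lyrm7, -0.59 for Tnip1 and -1.29 for Gm39822. Lyrm7 (chr11:54826866-54860916) and Tnip1 (chr11:54910785-54962917) are neighbours on the minus strand, and within 10 Mb of Tnip1 11 of 452 genes were called (2.43%), 6 within 5 Mb and 13 within 20 Mb.

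On chromosome 1, 3 genes close to each other were lower in MRL as well. They were Tgfb2, a growth factor of the TGF-beta family, with a log2 fold change of -1.0 ± 0.17 (adjusted p = 0.0208), its antisense neighbour Gm29491 with -2.03, and Lyplal1 with -0.97 ± 0.16 (adjusted p = 0.0188). Tgfb2 was at 60.6, 33.0, 38.7 and 39.8 CPM in MRL and at 88.8, 80.3 and 89.2 CPM in IRAK4-KD, without overlap. Gm29491 and Tgfb2 overlap on opposite strands, and whether the counting used strand is not given in the sources used here. In C57BL6/J over MRL-IRAK4-KD, Tgfb2 differed by -0.48 and Lyplal1 by -0.74, with adjusted p of 0.552 and 0.372. Without IRAK4-KD replicate 3 the adjusted p was 0.0299 for Gm29491, 0.0917 for Lyplal1 and 0.13 for Tgfb2.

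A second set of genes set IRAK4-KD apart from all 3 other groups, so that the difference from MRL was not matched by MRL-IRAK4-KD. The transfer RNA gene mt-Tg of the mitochondrial genome, for glycine, was at 14.3, 10.4, 8.33 and 14.6 CPM in MRL and at 0.741, 0.821 and 0.746 CPM in IRAK4-KD. Its log2 fold change was 3.95 ± 0.27 (adjusted p = 1.03e-05), and C57BL6/J (9.49 to 12.5 CPM) and MRL-IRAK4-KD (7.57 to 13.7 CPM) were at the level of MRL. The gene for arginine, mt-Tr, on the far side of the subunit gene mt-Nd3, was also higher in MRL, by 1.54 ± 0.29 on the log2 scale (adjusted p = 0.0404), with 8.56, 4.48, 4.67 and 9.53 CPM against 2.36, 2.34 and 2.31 CPM. The remaining mitochondrial call was mt-Tf, for phenylalanine, at a log2 fold change of 1.13 ± 0.19 (adjusted p = 0.0178). Without IRAK4-KD replicate 3 mt-Tg was still called (adjusted p = 0.000287), and mt-Tr (0.215) and mt-Tf (0.1) were not. These are reads in poly(A) libraries over the genes of small RNAs, not measurements of mature transfer RNA. Both genes that set IRAK4-KD apart are printed whole, in the plus strand of the mitochondrial genome, mt-Tg from M 9391 to 9458 and mt-Tr from M 9808 to 9875 (GENCODE M21, GRCm38).
mt-Tg: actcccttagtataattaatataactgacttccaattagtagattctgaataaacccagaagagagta
mt-Tr: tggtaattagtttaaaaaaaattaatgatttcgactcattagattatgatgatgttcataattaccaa
The 2 genes are 68 bases long each. The 13 protein-coding genes of the mitochondrial genome had a median log2 fold change of 0.37, against -0.01 over all genes tested, with 9 of the 13 higher at an unadjusted p under 0.05 and 0 called. Their summed level was 97300 to 112000 CPM in MRL and 76300 to 87400 CPM in IRAK4-KD, without overlap.

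On chromosome 14, between 25887506 and 26207041, 7 of 16 tested genes were called (43.8%), all higher in MRL. They were Tmem254a, Tmem254b, Tmem254c, Plac9a, Plac9b, Gm9780 and Duxbl2, copies of a small transmembrane protein gene, of a secreted-protein gene and of a homeobox gene, among which reads may be divided. Tmem254c was at 13.5, 13.6, 13 and 11.8 CPM in MRL and at 4.30, 3.88 and 3.25 CPM in IRAK4-KD, a log2 fold change of 1.77 ± 0.13 (adjusted p = 1.53e-05). Plac9b differed by 2.29 ± 0.25 (adjusted p = 0.000503), with every IRAK4-KD library below 0.379 CPM or at it and every MRL library at 1.41 CPM or above. MRL-IRAK4-KD was intermediate for Tmem254c, at 8 to 9.69 CPM, below all 7 libraries with an unmutated Irak4. In C57BL6/J over MRL-IRAK4-KD 0 of the 7 genes were called.

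The part of chromosome 11 from 3330401 to 54962917 held 21 calls of 776 genes (2.71%), against 4 of 1656 (0.242%) on the rest of the chromosome. Dusp18, a dual-specificity phosphatase, was at 41.5, 44.8, 37.8 and 40.1 CPM in MRL and 13.6, 13.3 and 13.2 CPM in IRAK4-KD, a log2 fold change of 1.62 ± 0.14 (adjusted p = 5.61e-05). C1d, a cofactor of the nuclear RNA exosome, was at 37.0, 38.0, 39.1 and 36.4 CPM against 10.3, 10.3 and 11.4 CPM, a log2 fold change of 1.82 ± 0.17. Ccm2, a gene of cerebral cavernous malformation, was at 27.1 to 28.9 CPM against 13.9 to 14.3 CPM, a log2 fold change of 0.99 ± 0.10. The replicates of both groups lay within a narrow band for all 3 genes. MRL-IRAK4-KD libraries did not: Dusp18 was at 27.1, 35.9, 40.1 and 26.1 CPM and C1d at 27.9, 41.1, 40.7 and 23.4 CPM in replicates 1 to 4, so that replicates 1 and 4 lay below every MRL library and replicates 2 and 3 lay near them. Pttg1, which encodes securin, was at 22.2 to 24 CPM in MRL and at 0.976 to 1.64 CPM in IRAK4-KD (log2 fold change 4.20 ± 0.55, adjusted p = 0.00281). The MRL-IRAK4-KD libraries held 25.8, 3.00, 25.3 and 16.1 CPM, with replicate 2 near the IRAK4-KD level. Libraries of MRL-IRAK4-KD thus differed among themselves at genes of this part of the chromosome, and not in the same order at each gene. Npc1l1, a sterol transporter, ran the other way, at 0.967 to 1.73 CPM in MRL and 4.05 to 4.43 CPM in IRAK4-KD, a log2 fold change of -1.55 ± 0.23 (adjusted p = 0.00778).

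Genes lower in MRL than in IRAK4-KD were also found as single noncoding RNAs and repeats. Gm27000, a long noncoding RNA of the X chromosome, was at 37.4, 61.6, 50.8 and 53.1 CPM in MRL and at 265, 341 and 249 CPM in IRAK4-KD, a log2 fold change of -2.49 ± 0.25 (adjusted p = 0.000269). The gene 1700029J07Rik of chromosome 8 differed by -1.80 ± 0.18, Amy1, an amylase, by -1.20 ± 0.18, and Col19a1, a collagen, by -1.34 ± 0.22. Thpo, which encodes thrombopoietin, differed by -1.04 ± 0.15. All 5 set IRAK4-KD above every library of the 3 other groups. Gene models of satellite-rich stretches, where reads are easily misplaced, Gm10722, Gm11168, Gm21738, Gm26870 and Gm10800, were at or below 0.14 CPM in MRL and reached 6.32 CPM in IRAK4-KD, where replicate 2 was the highest for each of the 5 genes. Gm11168 had 0 counts in every MRL library and 0.0619, 0.490 and 0.204 CPM in IRAK4-KD, which makes it at least 42.2-fold lower in MRL against a floor of 3 counts per library. In the other direction Ifi208, an interferon-inducible gene, was at 0.269, 0.221, 0.108 and 0.249 CPM in MRL and had 0 counts in each IRAK4-KD library, at least 30.6-fold higher in MRL. Several of these calls rested on single libraries. Gm10722 was not called without any 1 of the 7 libraries (adjusted p = 0.0655 to 0.201), and Gm10800 not without MRL replicate 4 (0.0504) or IRAK4-KD replicate 2 (0.0637). Gm11168 lost its call without MRL replicate 2 (0.059) or 4 (0.0577) and IRAK4-KD replicate 2 (0.115) or 3 (0.0917). Ifi208 lost it without MRL replicate 2 (0.0613) or 4 (0.0645) and without each IRAK4-KD library (0.101, 0.121 and 0.158).

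RNA over 3 microRNA hairpins of the imprinted cluster on chromosome 12 was lower in MRL. Mir494 was at 0.015, 0.0158, 0.00634 and 0.0334 CPM in MRL and 0.508, 0.691 and 0.503 CPM in IRAK4-KD, a log2 fold change of -4.98 ± 0.61 (adjusted p = 0.00148). Mir679 differed by -4.41 ± 0.61 and Mir1193 by -4.43 ± 0.67 (adjusted p = 0.00437 and 0.00791). The IRAK4-KD libraries were high for all 3 hairpins, without overlap. The libraries hold poly(A) RNA, so that these are reads of longer transcripts over the span of the hairpin and not mature microRNAs. The hairpins follow each other closely on the plus strand, and they are shown because the 3 calls fall on adjacent short spans, Mir494 at chr12:109715318-109715402, Mir679 at chr12:109715577-109715650 and Mir1193 at chr12:109715671-109715791 (RefSeq, GRCm38.p6, mature arms in capitals).
Mir494: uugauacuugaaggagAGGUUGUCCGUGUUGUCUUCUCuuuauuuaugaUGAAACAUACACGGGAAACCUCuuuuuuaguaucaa
Mir679: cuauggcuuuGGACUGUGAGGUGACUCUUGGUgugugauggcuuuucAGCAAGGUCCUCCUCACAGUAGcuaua
Mir1193: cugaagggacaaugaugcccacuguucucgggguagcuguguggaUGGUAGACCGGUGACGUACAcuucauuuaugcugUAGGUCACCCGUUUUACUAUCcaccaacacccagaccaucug
Snhg14, a long host transcript of small nucleolar RNAs in the imprinted Prader-Willi region of chromosome 7, was also lower in MRL, at 88.2, 102, 104 and 108 CPM against 165, 225 and 270 CPM (log2 fold change -1.13 ± 0.16, adjusted p = 0.00437).

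Another set of genes was higher in MRL than in IRAK4-KD with both other groups in between. Genes of brain endothelial cells, the lining of the vessels that forms the blood-brain barrier, formed the largest such list by calls. The list was written after the calls had been seen, so that its counts describe and do not test it. Of its 35 genes 34 had a higher level in MRL, 29 at an unadjusted p under 0.05 and 16 called, with a median log2 fold change of 1.12 against -0.01 over all genes tested. For this and the lists below, 5.68% of all genes tested were higher and 3.41% lower at an unadjusted p under 0.05. The number at an unadjusted p under 0.05 was 29 without each MRL library in turn and 28 without IRAK4-KD replicate 3, while the number called fell to 6 without that replicate. For 28 of the 35 genes (80.0%) the means of C57BL6/J and MRL-IRAK4-KD both lay between those of MRL and IRAK4-KD. The share was 15.1% of all genes, but most of those lack such a difference between MRL and IRAK4-KD, so that it is no like reference. In bulk tissue, more cells of a type and more RNA per cell cannot be told apart.

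Flt1, a receptor of vascular endothelial growth factors, was at 47.0, 44.7, 42.7 and 73.8 CPM in MRL and 17.4, 21.2 and 18.4 CPM in IRAK4-KD, a log2 fold change of 1.45 ± 0.19 (adjusted p = 0.00249). Slco1a4, an organic anion transporter of the barrier, was at 41.0, 39.7, 42.9 and 54.8 CPM against 14.7, 19.7 and 19.9 CPM, a log2 fold change of 1.30 ± 0.16 (adjusted p = 0.00198). Tie1, a receptor of the angiopoietin pathway, was at 6.97, 5.66, 5.24 and 8.95 CPM against 2.52, 2.15 and 2.02 CPM, a log2 fold change of 1.59 ± 0.20 (adjusted p = 0.00219). The groups did not overlap for any of these genes, and MRL replicate 4 was the highest library for each. Eng, Ptprb and Robo4, further receptors of endothelial cells, differed by 1.23, 1.12 and 1.35 on the log2 scale, and these 6 genes were the ones still called without IRAK4-KD replicate 3. Slc2a1, the glucose transporter of the barrier, differed by 0.96 ± 0.15 (adjusted p = 0.00864, 0.0917 without that replicate). Cldn5, the main claudin of the tight junctions, differed by 1.56 ± 0.25 (adjusted p = 0.0114, 0.107 without it and 0.0847 without IRAK4-KD replicate 2).

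The list of endothelial activation, 15 genes of adhesion and coagulation, had 12 genes higher at an unadjusted p under 0.05 and 2 called, Cldn5 and Vwf, with a median of 1.4. Vwf, the von Willebrand factor, was at 29.0, 17.6, 18.1 and 64.4 CPM in MRL and at 7.20, 6.96 and 5.83 CPM in IRAK4-KD, a log2 fold change of 2.28 ± 0.39 (adjusted p = 0.0228, but 0.101, 0.121 and 0.18 without IRAK4-KD replicates 1, 2 and 3), or 1.71 without MRL replicate 4. Pericytes and smooth muscle, the cells around the vessels, had 7 of 17 genes higher and 1 called, Notch3, at 8.93 to 9.47 CPM against 6.14 to 6.36 CPM (adjusted p = 0.0404, but 0.0807 to 0.209 without MRL replicate 2, 3 or 4 or any 1 of the IRAK4-KD libraries). The total for pericytes was 3 without that replicate. Red cells, platelets and neutrophils had 11 of 19 genes higher, 1 called, Hbb-bt, and a median of 2.00. Hbb-bt, a beta-globin close in sequence to Hbb-bs, was at 56.6, 19.0, 12.2 and 57.8 CPM in MRL and at 7.71, 3.79 and 2.73 CPM in IRAK4-KD (adjusted p = 0.0431), so that every MRL library was above every IRAK4-KD library although the brains had been flushed. Its call was lost without MRL replicate 1 (adjusted p = 0.0585), MRL replicate 4 (0.102) or any 1 of the IRAK4-KD libraries (0.0642, 0.207 and 0.256). The summed level of the blood list was 88.3 to 383 CPM in MRL and 24 to 64.6 CPM in IRAK4-KD, and its part in the other results was not tested. That list had 7 genes at an unadjusted p under 0.05 without IRAK4-KD replicate 2 or replicate 3. Beside these values, the endothelial list summed to 1820, 1700, 1760 and 2210 CPM in MRL and 1620, 1460 and 1320 CPM in IRAK4-KD.

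**Figure D4:**
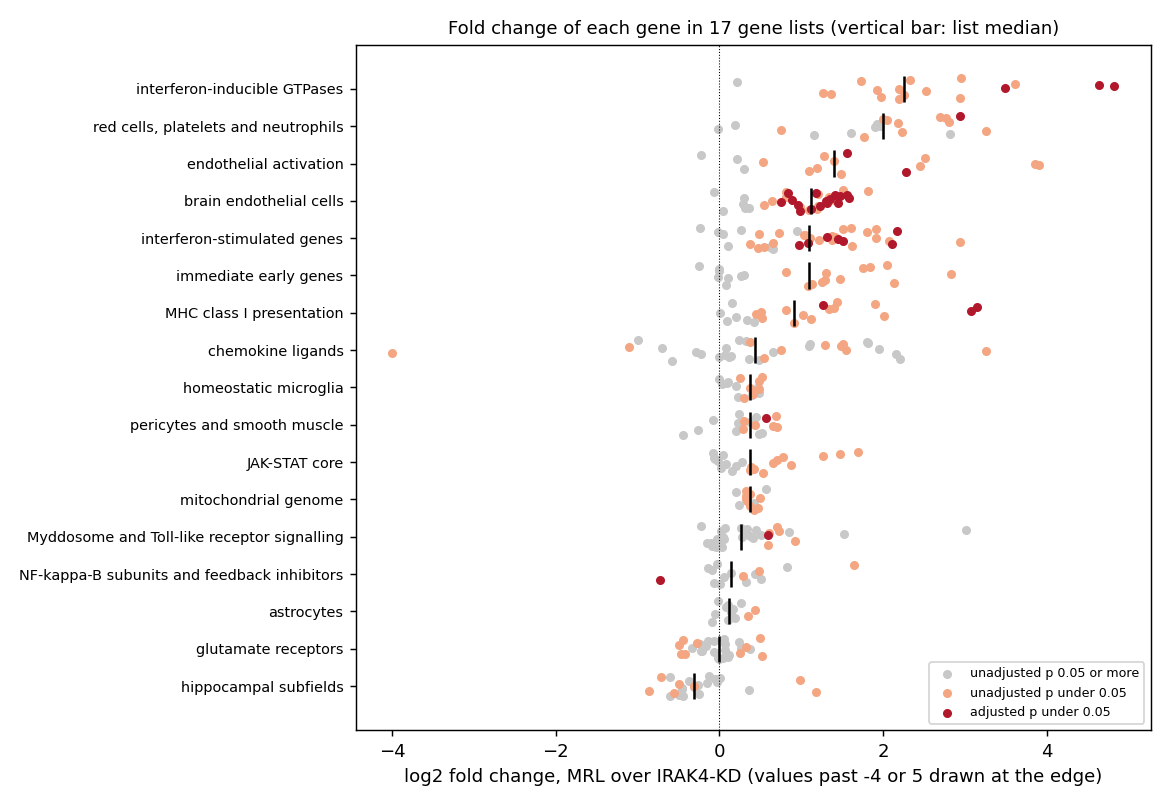
Log2 fold change (x axis, MRL over IRAK4-KD) of each gene of 17 lists, with the list's median as a vertical bar; grey points have an unadjusted p of 0.05 or more, orange ones a smaller p, and red ones an adjusted p under 0.05. Interferon-inducible GTPases (median 2.26), blood (2.00), endothelial activation (1.4), brain endothelial cells (1.12) and interferon-stimulated genes (1.1) lie to the right of 0, and glutamate receptors are spread about 0.

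Genes that interferon induces were higher in MRL. Of 36 interferon-stimulated genes 28 were higher at an unadjusted p under 0.05, 0 were lower, and 7 were called, with a median log2 fold change of 1.1. Irf7, the transcription factor that amplifies type I interferon, was at 2.73, 3.23, 2.99 and 6.02 CPM in MRL and at 0.865, 0.963 and 0.775 CPM in IRAK4-KD, a log2 fold change of 2.11 ± 0.28 (adjusted p = 0.00272). Irf7 was the 1 gene of the list still called without IRAK4-KD replicate 3 (adjusted p = 0.0344). It was at 1.41 to 2.11 CPM in MRL-IRAK4-KD and 1.13 to 1.4 CPM in C57BL6/J. Irf7 thus set MRL apart from all others and IRAK4-KD apart from all others. It was also among the 11 called genes for which both lpr groups lay apart from both others, but there by 1.41 against 1.4 CPM. IRAK4-KD replicate 3, with the Fas transcripts of the lpr groups, was the lowest library for Irf7 at 0.775 CPM. The other 6 calls were Oas1a and Oasl2 of the oligoadenylate synthetase family, Mx2, Ifih1, a sensor of double-stranded RNA, Usp18, which removes ISG15, and Rtp4, with log2 fold changes of 0.97 to 2.17. Without MRL replicate 4 the median was 0.95, and again Irf7 was called (adjusted p = 0.0013) and the other 6 were not (adjusted p = 0.0548 to 0.128). Ifih1, Oasl2 and Rtp4 also lost their calls without MRL replicate 2 (0.0554, 0.0631 and 0.0528) and without each IRAK4-KD library. The groups did not overlap for 28 of the 36 genes, against 12.4% of all genes tested. Without MRL-IRAK4-KD replicate 4 in the fit, 17 of the 36 genes were called, all higher in MRL, against 2.09% of all genes tested in that fit.

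Of 17 interferon-inducible GTPases, proteins that attack pathogens inside cells, 16 were higher at an unadjusted p under 0.05 and 3 were called, Tgtp1, Tgtp2 and Ifi47. Tgtp1 was at 3.63, 3.19, 3.67 and 41.9 CPM in MRL and 0.627, 0.500 and 0.452 CPM in IRAK4-KD, a log2 fold change of 4.64 ± 0.92 (adjusted p = 0.0464). Summed over the list the levels were 73.5, 68.4, 62.4 and 474 CPM in MRL and 35.9, 32.4 and 31.8 CPM in IRAK4-KD. MRL replicate 4 thus held most of the signal, and the other 3 MRL libraries were still above every IRAK4-KD library. Without MRL replicate 4 the median fell from 2.26 to 1.1 and 13 genes stayed at an unadjusted p under 0.05. Tgtp1 kept its call without MRL replicate 4 at a log2 fold change of 2.74 (adjusted p = 0.00303), and so did Tgtp2 (2.94) and Ifi47 (2.13). All 3 calls were lost without each IRAK4-KD library in turn, with adjusted p of 0.179, 0.212 and 0.287 for Tgtp1, 0.152, 0.208 and 0.269 for Tgtp2, and 0.185, 0.206 and 0.294 for Ifi47. They were also lost with the 7 libraries alone in the fit and with limma-voom, and Tgtp1 lost its call when MRL-IRAK4-KD replicate 4 was removed (adjusted p = 0.052). Tgtp1 and Tgtp2 are near-identical neighbours between which reads may be divided.

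MHC class I presentation showed 15 of 21 genes higher at an unadjusted p under 0.05, 0 lower, 3 called and a median of 0.91, which was 0.59 without MRL replicate 4. H2-D1, a classical class I heavy chain, was at 45.4, 43.6, 37.3 and 85.0 CPM in MRL and at 24.5, 22.7 and 18.7 CPM in IRAK4-KD, a log2 fold change of 1.27 ± 0.22 (adjusted p = 0.0258). The Qa genes H2-Q6 and H2-Q7, close copies of each other, differed by 3.15 ± 0.53 and 3.08 ± 0.50, or by 2.35 and 2.31 without MRL replicate 4. The light chain B2m was at 115, 116, 92.6 and 182 CPM against 74.6, 75.1 and 65.3 CPM, a log2 fold change of 0.82 ± 0.19 (adjusted p = 0.0843, or 0.0212 with MRL-IRAK4-KD replicate 4 removed). The groups did not overlap for any of these 4 genes. Each of the 3 calls was lost when any 1 of the IRAK4-KD libraries was left out, with adjusted p of 0.128 for H2-Q7, 0.158 for H2-Q6 and 0.195 for H2-D1 without replicate 3.

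The promoters of these genes were searched on both strands for GAAA, any 2 bases and GAAA again, letters within the element through which interferon acts, from 250 bases before the start of each gene to 50 after it (RefSeq, GRCm38.p6). The letters were found in 1131 of 32851 promoters (3.44%), in 15 of 27 promoters of the interferon-stimulated genes (55.6%), 9 of 11 of the GTPases (81.8%), 5 of 19 of MHC class I (26.3%) and 0 of 32 of the endothelial list. Of the 13 called genes of the 3 interferon lists 10 had a promoter in the table and 4 of those held the letters. For 3 of them and for B2m, windows of 30 bases are printed in the direction of the gene with the letters in capitals, so that the flanks of the site can be compared among genes of these lists. They lie at chr5:120907526-120907555 on the minus strand (Oas1a, 20 bases before the start), chr11:48992304-48992333 on the minus strand (Tgtp1, 77 bases before), chr11:49064263-49064292 on the minus strand (Tgtp2, 70 bases before) and chr2:122147538-122147567 on the plus strand (B2m, 139 bases before).
Oas1a: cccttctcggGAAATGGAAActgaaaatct
Tgtp1: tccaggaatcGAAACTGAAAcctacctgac
Tgtp2: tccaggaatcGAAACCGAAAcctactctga
B2m: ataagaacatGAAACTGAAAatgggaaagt
A match is a description of the letters and not of a bound site.

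The pathway of IRAK4 itself was read from a list of 33 genes of the Myddosome and of Toll-like receptors. Of these 6 were higher at an unadjusted p under 0.05, 0 were lower, and the median was 0.27. The count was 3 without IRAK4-KD replicate 1 and 13 with MRL-IRAK4-KD replicate 4 removed. Over all genes the calls rose from 168 to 1088 with that library removed. The shares of 5.68% and 3.41% are therefore no reference for counts in that fit, here and in the lists below. Its own share of all genes at an unadjusted p is not given here, so that such a rise is no result about a list. The 1 call was Unc93b1, the chaperone that carries the nucleic-acid-sensing Toll-like receptors to endosomes, at 13.4, 12.4, 12.5 and 13.9 CPM in MRL and 9.42, 9.11 and 7.42 CPM in IRAK4-KD, a log2 fold change of 0.59 ± 0.11 (adjusted p = 0.0282). The groups did not overlap, but the adjusted p of Unc93b1 was 0.0527 to 0.179 without each IRAK4-KD library in turn and 0.0554 to 0.0853 without MRL replicate 2, 3 or 4. Tlr7, the receptor of single-stranded RNA, was at 4.29, 2.73, 3.36 and 4.43 CPM against 2.15, 2.52 and 2.63 CPM, without overlap (log2 fold change 0.61, adjusted p = 0.36). Tlr2 had a log2 fold change of 0.93 and an adjusted p of 0.208, with overlapping groups.

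Among 15 NF-kappa-B subunits and feedback inhibitors 3 were higher and 1 lower at an unadjusted p under 0.05, and the one called was the lower one, Tnip1 (above). The total of 4 was 2 without IRAK4-KD replicate 3 and 7 with MRL-IRAK4-KD replicate 4 removed, and the median was 0.14. Bcl3 stood at 0.585, 0.424, 0.351 and 1.19 CPM in MRL and 0.255, 0.188 and 0.164 CPM in IRAK4-KD (log2 fold change 1.65 ± 0.43, adjusted p = 0.146). Of 21 JAK-STAT genes 11 were higher, 0 lower and 0 called, with a median of 0.37. Among them Socs3, a feedback inhibitor, was at 1.52, 3.49, 2.81 and 4.41 CPM in MRL and 0.919, 1.38 and 1.02 CPM in IRAK4-KD (log2 fold change 1.47 ± 0.41, adjusted p = 0.178). The groups did not overlap for Bcl3 or Socs3, yet the differences did not pass the adjusted threshold. Without MRL-IRAK4-KD replicate 4, 6 of the 21 were called, all higher in MRL, against 2.09% of all genes tested in that fit.

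Outside the Ccl21 copies, chemokine ligands were less uniform. Of 32, 8 were higher and 2 lower at an unadjusted p under 0.05, with 0 called and a median of 0.43, and the total of 10 was 6 without IRAK4-KD replicate 3. Ccl2, which recruits monocytes, was at 0.200, 0.131, 0.199 and 0.134 CPM in MRL and 0.0347, 0.0851 and 0.0541 CPM in IRAK4-KD, a log2 fold change of 1.51 ± 0.44 (adjusted p = 0.196). Cxcl10, an interferon-induced ligand, had a log2 fold change of 1.49 ± 0.49 (adjusted p = 0.287). Ccl17 was the ligand lower in MRL at the smallest p, at 0.451, 0.450, 0.448 and 0.364 CPM against 0.996, 0.943 and 0.831 CPM (log2 fold change -1.11 ± 0.34, adjusted p = 0.237). For Ccl2 and Ccl17 the groups did not overlap.

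Of 18 genes of homeostatic microglia, the resident macrophages of the brain, 18 had a higher level in MRL and 9 an unadjusted p under 0.05, with 0 called, a median of 0.38, and 4 at that p without IRAK4-KD replicate 3. Csf1r, their growth factor receptor, was at 114, 83.4, 84.2 and 98.1 CPM in MRL and 73.1, 73.8 and 66.8 CPM in IRAK4-KD (log2 fold change 0.41 ± 0.11, adjusted p = 0.157). Without MRL-IRAK4-KD replicate 4, 8 of the 18 were called, all higher in MRL, against 2.09% of all genes tested in that fit. Activated microglia (4 of 21 higher, median 0.23), complement (7 of 21, median 0.45) and MHC class II (3 of 12, median 0.52) had 0 calls and 0 genes lower at an unadjusted p under 0.05. These counts rested on single libraries, and those with MRL-IRAK4-KD replicate 4 removed come from the fit with 1088 calls over all genes. Activated microglia had 2 genes at that p without MRL replicate 4 or IRAK4-KD replicate 3, and 11 with MRL-IRAK4-KD replicate 4 removed, of which 5 were called. Complement had 2 without IRAK4-KD replicate 3 and 11 with MRL-IRAK4-KD replicate 4 removed, of which 4 were called. MHC class II had 6 without MRL replicate 2 and 1 without IRAK4-KD replicate 2, and its median was 0.29 without MRL replicate 4. Reactive astrocytes had 12 of 28 genes higher and 1 lower (median 0.32), and general astrocyte markers 2 of 12 higher (median 0.12), again with 0 called. The astrocyte count was 1 without MRL replicate 4, IRAK4-KD replicate 1 or IRAK4-KD replicate 3, and 5 with MRL-IRAK4-KD replicate 4 removed.

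Immediate early genes, which neurons switch on when active, had 12 of 20 higher, 0 called and a median of 1.1. The summed level was 964, 2130, 1480 and 917 CPM in MRL and 938, 833 and 840 CPM in IRAK4-KD, so that MRL replicates 2 and 3 were high and replicate 4 lay below IRAK4-KD replicate 1. Without MRL replicate 2 the median was 0.50. The neocortical list also differed within MRL, at 701, 1290, 1110 and 1110 CPM against 578 to 770 CPM in IRAK4-KD, with 9 of 15 genes higher, 1 lower and 0 called (median 0.53). The total of 10 was 6 without MRL replicate 2 or IRAK4-KD replicate 3. Genes of hippocampal subfields had 2 of 23 higher, 5 lower and 0 called, with a median of -0.31, and this count was sensitive to MRL replicate 1 (15 without it) and MRL replicate 2 or IRAK4-KD replicate 1 (2 without either). Their summed level was 1910, 1220, 1410 and 1320 CPM in MRL and 2120, 1760 and 1930 CPM in IRAK4-KD. MRL replicates 2, 3 and 4, the high ones for the neocortical list, thus lay below every IRAK4-KD library. Striatal genes had 6 of 16 lower and a median of -0.85, which turned to 0.30 without IRAK4-KD replicate 3. The count of striatal genes was 3 without that replicate or without MRL replicate 1. Glutamate receptors had 4 of 28 higher and 5 lower, a total of 9 that was 5 without IRAK4-KD replicate 3, with a median of -0.01.

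Further lists had 0 calls. Beside their counts, 5.68% of all genes tested were higher and 3.41% lower at an unadjusted p under 0.05, and several of these lists were near those shares. The shares belong to the fit with all libraries and not to fits with 1 library left out. Lymphocytes had 4 of 21 genes of immunoglobulins and B cells higher at an unadjusted p under 0.05 (median 0.26), and 7 of 28 genes of T cells and cytotoxic cells higher with 2 lower (median 0.95, or 0.87 with genes at 0 counts set to their bound), a total of 9 that was 4 without MRL replicate 4. Genes of the interleukin-1 family, which signals through IRAK4, had 1 of 14 higher (median 0.26). Among tissues next to the hippocampus, choroid plexus had 0 of 18 genes at that p with summed levels of 258 to 2450 CPM in MRL and 342 to 2050 CPM in IRAK4-KD, meninges had 2 of 18 higher (median 0.23), and thalamus 3 of 14 (median 0.03). Pituitary genes had 3 of 12 higher and a median of 1.12, or 0.60 with genes at 0 counts set to their bound, which was -0.09 without MRL replicate 3. That count was 1 without MRL replicate 3 and 0 without IRAK4-KD replicate 1 or 3. GABA receptors and interneurons had 2 of 25 higher and 2 lower (median 0.02), neurogenesis 1 of 18 higher (median -0.02), and myelin 2 of 23 higher (median 0.20). With 1 library left out at a time these counts ranged from 1 to 3 genes for the interleukin-1 family, from 0 to 5 for choroid plexus (5 without IRAK4-KD replicate 2), from 0 to 4 for meninges (0 without MRL replicate 3 or 4 or IRAK4-KD replicate 3), from 1 to 4 for neurogenesis, from 0 to 5 for myelin (5 without MRL replicate 4) and, in either direction, from 1 (without MRL replicate 4) to 11 (with MRL-IRAK4-KD replicate 4 removed) for GABA.

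IRAK4-KD replicate 3 was then left out. Of 37711 genes tested, 63 were called (0.167%), of which 58 had also been called with it, and 110 of the 168 genes were no longer called. All 168 genes kept their direction and an unadjusted p under 0.05, and the median size of their log2 change was 1.48 against 1.52. They had been chosen in a fit that shares every other library, so that this is no separate evidence. With 2 IRAK4-KD libraries left the count was again unstable, at 36 without MRL replicate 2, 33 without MRL replicate 3, 20 and 25 without IRAK4-KD replicates 1 and 2, and 402 without MRL-IRAK4-KD replicate 4.

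The genes called without replicate 3 were chosen without its values, so that its own level at them could be read. On a scale of log2(CPM + 0.1) where the mean of IRAK4-KD replicates 1 and 2 is 0 and the mean of MRL is 1, the library labelled IRAK4-KD replicate 3 had a median position of 0.006 over the 63 genes, from -0.52 to 0.82. It was nearer to the other IRAK4-KD libraries for 59 genes and nearer to MRL for 4, Knstrn, Bmp15, Lgr6 and Trim63. Of the 63 genes, 16 lie in the Ccl21 interval of chromosome 4, 11 in the first part of chromosome 11 and 6 in the chromosome 14 interval. Such neighbours and copies are not separate readings of IRAK4-KD replicate 3. At Fas it had the transcripts of the lpr groups, and at the Ccl21 cluster, mt-Tg, Dusp18, C1d, Pttg1, Lyrm7, Tnip1 and Gm27000 it had the level of IRAK4-KD replicates 1 and 2. Whether the difference at Fas changes other genes of this library was not tested, since it is 1 library.

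**Figure D5:**
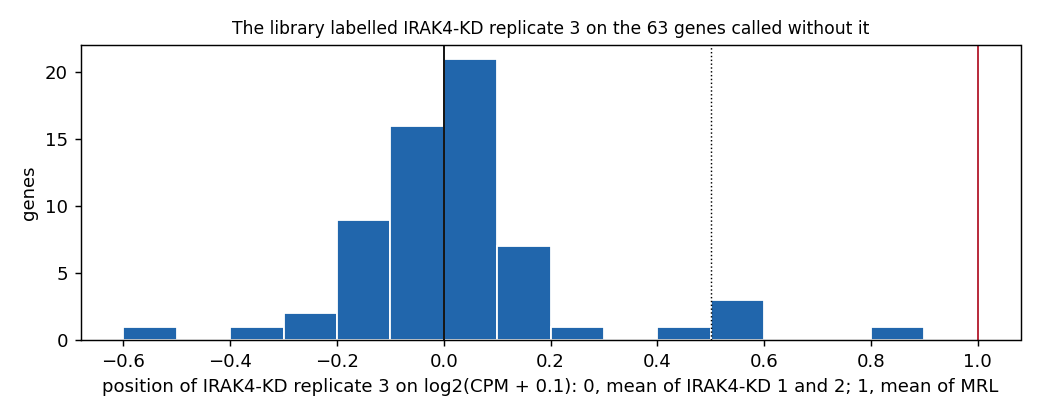
Position of the library labelled IRAK4-KD replicate 3 at the 63 genes called without it (x axis, log2(CPM + 0.1) scaled so that 0 is the mean of IRAK4-KD replicates 1 and 2 and 1 the mean of MRL; y axis, number of genes; dotted line at 0.5). Of the 63 genes 59 lie left of the dotted line, with a median of 0.006.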

How the data were processed

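Poly(A) RNA from the hippocampus of 14 mice was sequenced. The authors aligned the reads to mm10, and the deposited values are unnormalized whole counts for genes and for transcripts. The submitters' processing notes name HISAT2 2.1.0, SAMtools 1.9, StringTie 2.1.0, R 4.0.5 and DESeq2 1.30.1. StringTie counts derive from coverage: totals came to 1.402 to 2.083 counts per read of 148569712 to 299836957 sequenced reads, so that counts are not independent molecules and floors of 3 counts cover counting error only. Features other than Ensembl genes held at most 0.1884% of the counts and were left out. Transcript types and coordinates come from GENCODE M21 (GRCm38).

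A model of 4 groups was fitted to the genes that reached 10 counts over all libraries with edgeR 4.0.16 (R 4.3.3), using TMM scaling, the robust quasi-likelihood test and Benjamini-Hochberg adjustment. SE is the log2 fold change divided by the square root of F. The fit was tested on simulated counts. These had independent noise for each gene and no outlying library, so that they do not test the dependence on single libraries. No 2 libraries of a group agreed within sampling noise. Replicate numbers did not pair the groups: deviations of same-numbered MRL and IRAK4-KD libraries correlated at 0.03, -0.12 and -0.03. The p-values cover the spread between mice.

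Named genes are Irak4, Fas, Ccl2 and the Ccl21 genes, the 10 called genes with the largest change in each direction (mean of at least 0.1 CPM, no overlap), the 10 with the smallest p on placed chromosomes and over 10 Mb from Fas, Irak4, the Ccl21 genes and Tnip1, and the 4 with the smallest p in each list. Other called genes were named after their values were seen. Groups and lists were chosen with earlier results of these data known, and 3 of the 33 lists (brain endothelial cells, pericytes and smooth muscle, astrocytes) and the intervals on chromosomes 4, 11 and 14 were set after the calls had been seen. Alternatives were other scalings, filters, tools (DESeq2 1.42.0, limma-voom 3.58.1), the transcript table, halved counts, a replicate block, 2 groups alone, and each library left out. Some single genes are not reported here.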

Additional observations from a re-analysis of the deposited data

Results flagged for a closer look

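Single MRL libraries stood apart from their group at 25 of 163 named genes. A library is given here when its gap to the nearest of the others, divided by the range of the 4 libraries of a group, was above the critical value of Dixon's test at the 95% level for 4 values. IRAK4-KD has 3 libraries, so that this rule could not mark any of them. Chance gives such a gap in about 1 in 20 groups, and many of these genes move together, so that their number is no count of independent events. Most of the values belong to MRL replicate 4. In that library the interferon-related genes were at 6.02 CPM (Irf7), 41.9 CPM (Tgtp1), 41.4 CPM (Tgtp2), 9.74 CPM (Ifi47), 33.8 CPM (Gbp3) and 59.3 CPM (Gbp2). MHC genes were at 13.7 CPM (H2-Q7), 16.9 CPM (H2-Q6), 85.0 CPM (H2-D1), 21 CPM (H2-T23), 13.8 CPM (H2-Aa) and 7.29 CPM (H2-Ab1). Vascular genes were at 73.8 CPM (Flt1), 29.4 CPM (Pecam1) and 99.3 CPM (Rgs5). The other values of that library were 0.332 CPM for the Ccl21b of scaffold JH584293.1, 0.364 CPM for Ccl17 and 94.2 CPM for Gad2, an enzyme of GABA synthesis. MRL replicate 1 stood apart at 26.6 CPM for Amigo2 and 1.11 CPM for Gm10591, and MRL replicate 2 at 0.124 CPM for Gm21738. MRL replicate 3 stood apart at the pituitary hormone genes Prl (69.6 CPM), Gh (10.9 CPM), Pomc (4.24 CPM) and Cga (0.76 CPM).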

How the results depend on the processing

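The number of calls depended on the tool and on single libraries, while the direction of named genes changed in 2 fits. With DESeq2 there were 1091 calls, 801 higher and 290 lower in MRL, and with limma-voom and quality weights 1623, 1006 and 617, against 168, 128 and 40. With the 7 libraries of the comparison alone there were 259, of which 70 were lower. Leaving out 1 library at a time gave 62 to 1088 calls, 44 to 789 higher and 18 to 299 lower. Without IRAK4-KD replicate 3 the 63 calls became 540 with DESeq2, 525 with limma-voom and 20 to 402 with 1 more library left out. For C57BL6/J against MRL-IRAK4-KD the 37 calls became 174 with DESeq2, 81 with limma-voom, 13 with those groups alone and 23 to 43 with 1 library left out. RLE factors (174), no TMM factors (133), no filter (159), edgeR's own filter (216), the transcript table (168) and halved counts (185) stayed within 1.5 times the 168. The share of calls higher in MRL was 76.2%, and 66.9% without TMM factors. The causes were not tested.

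Replicate numbers did not pair the libraries, and a replicate block gave 135 calls, 26 of them lower in MRL, 35 without IRAK4-KD replicate 3 and 26 for C57BL6/J against MRL-IRAK4-KD. Over 2961 alternative fits of single named genes 2 changed sign, 114 lost the call and 174 gained it. The 2 were of genes not called in any of these fits, Irak4, at a log2 fold change of 0.07 and of -0.01 with limma-voom, and the striatal gene Adora2a, at -1.76, from -2.27 (without IRAK4-KD replicate 1) to 0.73 (without IRAK4-KD replicate 3) with 1 library left out. Over 594 alternative counts of lists 96 moved by more than 1.5 times. Groups of 3 and 4 libraries limit what could be called, and counts derived from coverage do not give the number of molecules.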
